A study of Mus musculus with 13 samples.

Results

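The Notch signalling genes described here are 10 of the 24495 genes in a read count table of mouse embryonic fibroblasts (MEFs) during reprogramming towards pluripotency. They were taken by gene symbol: the receptors Notch1, Notch2 and Notch3, the ligands Jag1, Jag2 and Dll1, and the target genes Nrarp, Hes1, Hey1 and Heyl. The set was chosen from earlier results of the same libraries and is named for Nrarp, whose level separated reprogramming cultures from Untreated MEFs. The values taken to have chosen it are therefore those of pMXs against Untreated, which are given below for the members as a description with no test. Nrarp is described without a test in every comparison.

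Messenger RNA was sequenced in 13 bulk libraries. All MEFs were isolated at embryonic day 12.5 on the strain background V6.5 129XBI/6, were labelled Tet2-/- and carried doxycycline-inducible OKSM, the reprogramming factors Pou5f1, Klf4, Sox2 and Myc, with the rtTA activator. Tet2-WT (n = 3) received a pMXs retrovirus with wild-type Tet2, Tet2-E (n = 4) one with the mutant that the submitters call stalling, and pMXs (n = 3) the empty vector. These 3 groups were harvested at day 5 of reprogramming, on feeder MEFs arrested with Mito-C, in medium with LIF, 1 µM of the MEK inhibitor PD0325901, 3 µM of the GSK3 inhibitor CHIR99021 and 2 µg/mL doxycycline. Untreated MEFs (n = 3) did not undergo reprogramming, and from their labels it is unclear whether the empty vector was present. No step that removes feeder cells is described, so a day 5 library holds RNA of the whole culture, and fewer cells of a type cannot be told apart from less RNA per cell. The labels number the replicates 1, 2, 100 and 250 and do not say whether they were separate cultures, so p-values measure the spread between these libraries.

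Notch receptors are single-pass membrane proteins that are activated by Jagged and Delta-like ligands on neighbouring cells. Ligand binding lets ADAM proteases and then gamma-secretase cut the receptor, and the freed intracellular domain enters the nucleus, where it joins the DNA-binding protein Rbpj and a Mastermind coactivator to switch on targets. Among these targets are the transcriptional repressors of the Hes and Hey families, and Nrarp, a small ankyrin-repeat protein that binds the activated complex and restrains it. In mesenchymal tissue Notch3 and Heyl are best known from the mural cells that line vessels.

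Total counts ran from 14052646 to 26265382 per library. Tet2 RNA was 1176 to 1242 CPM with Tet2-WT, 580 to 1403 CPM with Tet2-E, 39.1 to 58.8 CPM with pMXs and 37.8 to 48.3 CPM in Untreated MEFs, where CPM is the count as a share of the library, scaled to the same size in every library by TMM. The labels do not name the part of Tet2 that is deleted, so its RNA in pMXs and Untreated is a check of the vectors and not of the deletion. Tet2-E replicate 100 had the 580 CPM, and values of Tet2-E are given with and without it where they turn on it. CPM is not divided by gene length, so levels are compared between groups and not between genes. Exons of Nrarp, Notch1, Notch3 and Dll1 overlap genes on the opposite strand and those of Notch2 a gene on the same strand. None of these overlapping genes is in the count table. Opposite-strand reads were kept apart only if counting used strand, which is not given, and same-strand reads could not be told apart. Fibroblast markers were present throughout: the sum of 13 of them was 17101 to 18263 CPM with Tet2-WT, 20508 to 21793 CPM with Tet2-E, 22379 to 26381 CPM with pMXs and 45117 to 47856 CPM in Untreated MEFs. The endothelial markers Pecam1, Cdh5, Tie1 and Emcn had at most 11 counts in any day 5 library, while the other 4 of the 8 endothelial markers reached 42 (Esam), 93 (Kdr), 138 (Flt1) and 2134 counts (Tek).

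Nrarp, Jag2 and Dll1 were low in every Untreated library and far higher in every day 5 library, whichever vector the cells carried. Nrarp was 82.3, 78.4 and 75.4 CPM in pMXs replicates 2, 100 and 250, against 1.71, 2.01 and 1.12 CPM in Untreated replicates 1, 2 and 100. The ratio of the means was 48.8, and the log2 fold change 5.60 ± 0.15 (approximate SE). With Tet2-WT, Nrarp was 76.5, 84.5 and 77.2 CPM in replicates 1, 2 and 250, against 68.6, 60.7, 80.5 and 68.3 CPM in Tet2-E replicates 1, 2, 100 and 250. The order of the Nrarp means was thus Tet2-WT (79.4 ± 4.44 CPM, SD), pMXs (78.7 ± 3.48 CPM), Tet2-E (69.5 ± 8.18 CPM) and Untreated (1.61 ± 0.455 CPM). The 3 day 5 groups overlapped each other, and all of them lay above Untreated.

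Jag2, a Jagged-type ligand, was 69.4, 63.8 and 63.4 CPM in pMXs replicates 2, 100 and 250, against 2.41, 2.47 and 1.99 CPM in Untreated replicates 1, 2 and 100. The means stood in a ratio of 28.6 (log2 fold change 4.83 ± 0.13), and the groups did not overlap. Dll1, a Delta-like ligand of neural and somite development, was 11.9, 10.3 and 14.7 CPM in the same pMXs libraries, against 0.0832, 0.151 and 0.292 CPM in Untreated replicates 1, 2 and 100. The Untreated values of Dll1 rest on 2, 3 and 6 counts, so its log2 fold change of 6.11 ± 0.33 is less certain than that of Jag2. Dll1 passed the filter on low counts only through the day 5 groups. Epithelial markers moved with these 3 genes: 7 of 8 rose in pMXs over Untreated and 0 fell, where 35.0% of all genes tested were called in each direction. Their summed level was 314 to 397 CPM in pMXs, most of it Cdh1, and 2.70 to 3.93 CPM in Untreated MEFs. Of 8 neural markers 4 rose and 2 fell, nearer to those shares, with a sum of 544 to 651 CPM in pMXs and 465 to 495 CPM in Untreated. Their part in the result was not tested.

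**Figure D1:**
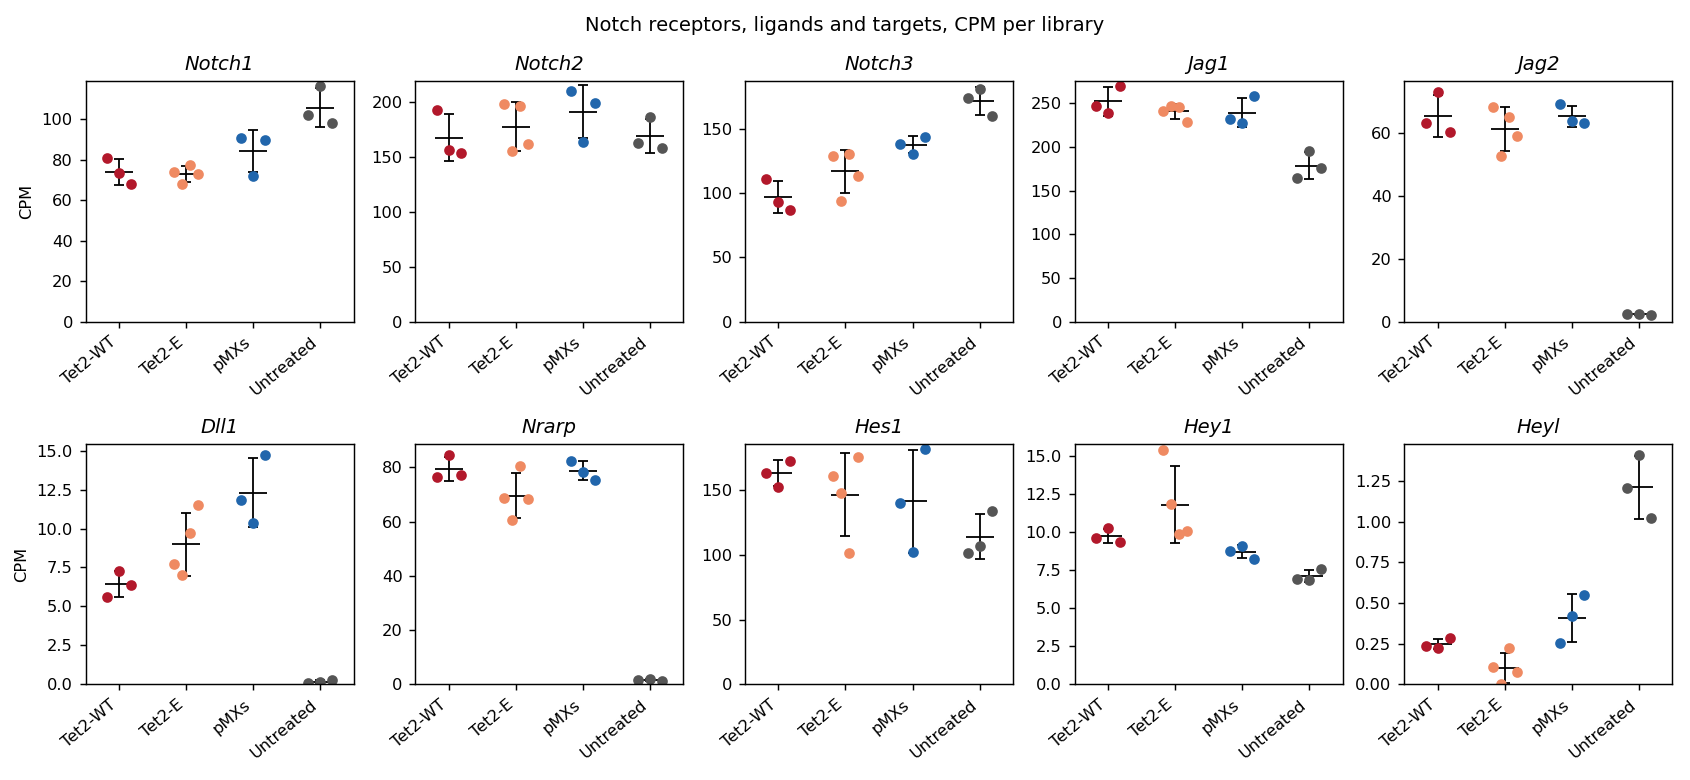
Level of each member in CPM (vertical axis, starting at 0, scale differs between panels) in Tet2-WT, Tet2-E, pMXs and Untreated; points are libraries, horizontal marks are means and bars are SDs (n = 3, 4, 3 and 3). Nrarp, Jag2 and Dll1 are near 0 only in Untreated, Heyl is highest there, and Dll1 and Notch3 are lower with Tet2-WT than with pMXs in every library.

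The windows before the start sites of these 3 genes are shown because Tet2 acts on cytosines methylated in CG dinucleotides. Sequences are from RefSeq, build GRCm38.p6, 250 bases before each start in the direction of the gene, with CG dinucleotides in capitals. The table matched 7 of the 10 members, Hes1, Hey1 and Heyl having no entry. Dll1 has 2 start sites there.
Nrarp, chr2:25180508-25180757, plus strand: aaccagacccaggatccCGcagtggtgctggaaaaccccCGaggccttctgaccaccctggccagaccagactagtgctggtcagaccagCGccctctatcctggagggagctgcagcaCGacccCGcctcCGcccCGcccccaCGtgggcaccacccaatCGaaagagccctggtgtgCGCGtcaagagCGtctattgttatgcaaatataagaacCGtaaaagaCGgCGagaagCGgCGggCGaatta
Jag2, chr12:112929496-112929745, minus strand: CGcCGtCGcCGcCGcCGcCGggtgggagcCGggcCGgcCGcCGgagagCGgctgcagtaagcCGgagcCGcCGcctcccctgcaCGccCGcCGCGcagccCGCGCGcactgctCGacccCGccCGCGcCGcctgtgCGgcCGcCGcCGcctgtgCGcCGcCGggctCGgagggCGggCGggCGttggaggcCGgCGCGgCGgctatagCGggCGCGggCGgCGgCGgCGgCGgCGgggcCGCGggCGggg
Dll1, chr17:15375824-15376073, minus strand: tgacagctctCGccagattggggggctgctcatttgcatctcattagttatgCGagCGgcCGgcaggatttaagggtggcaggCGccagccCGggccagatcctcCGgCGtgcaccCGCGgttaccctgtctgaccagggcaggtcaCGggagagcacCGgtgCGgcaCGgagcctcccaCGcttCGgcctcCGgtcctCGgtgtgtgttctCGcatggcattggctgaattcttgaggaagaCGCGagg
Dll1, chr17:15376933-15377182, minus strand: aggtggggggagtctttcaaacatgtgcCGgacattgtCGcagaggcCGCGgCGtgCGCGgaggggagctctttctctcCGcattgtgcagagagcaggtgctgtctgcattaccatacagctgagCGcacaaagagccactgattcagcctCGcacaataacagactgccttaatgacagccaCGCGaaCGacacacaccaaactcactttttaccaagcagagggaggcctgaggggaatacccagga
The Nrarp window held 18 CG dinucleotides, the Jag2 window 54, and the Dll1 windows 21 and 13. Over all 32851 windows of the table the median was 6 and the upper quartile 16. The remaining windows held 16 (Notch1), 34 (Notch2), 17 (Notch3) and 20 (Jag1), so the counts of the 3 genes that were near 0 in Untreated MEFs overlapped those of the other members. The 6-base core of the Rbpj motif, TGGGAA, searched on both strands, was in 0 of the 8 windows of members and in 21.6% of all windows. That says only that these letters are not in these windows. No methylation was measured in these libraries.

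The receptors and the other targets differed far less between pMXs and Untreated. Notch1 was 90.6, 72.0 and 89.7 CPM in pMXs replicates 2, 100 and 250, against 102, 116 and 98.0 CPM in Untreated replicates 1, 2 and 100 (log2 fold change -0.33 ± 0.10). Notch3 was 139, 131 and 144 CPM in pMXs, against 174, 181 and 160 CPM in Untreated MEFs (-0.32 ± 0.11), again with no overlap. Notch2 overlapped between the groups (192 ± 24.4 CPM in pMXs and 169 ± 15.4 CPM in Untreated). Jag1, the other Jagged ligand, was 232, 227 and 258 CPM in pMXs, against 165, 195 and 176 CPM in Untreated MEFs, a log2 difference of 0.42 ± 0.08 without overlap. In pMXs the 3 ligand genes were thus higher than in Untreated and 2 of the 3 receptor genes lower. Over all genes tested 35.0% were called in each direction. With 1 library left out, Notch1 was called in 12 of 13 fits and Notch3 in 11 of 13.

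Of the target genes, Nrarp stood alone in the size of its difference. Hes1, a repressor that oscillates in many progenitor cells, was 140, 102 and 181 CPM in pMXs replicates 2, 100 and 250, against 101, 107 and 134 CPM in Untreated replicates 1, 2 and 100 (log2 fold change 0.31 ± 0.21). The groups overlapped, and replicate 100 was the lowest library of both pMXs and Tet2-E. Hey1 was 8.73 ± 0.423 CPM in pMXs and 7.15 ± 0.386 CPM in Untreated MEFs (0.29 ± 0.15). Heyl went the other way, with 0.254, 0.421 and 0.547 CPM in pMXs replicates 2, 100 and 250, against 1.21, 1.41 and 1.02 CPM in Untreated replicates 1, 2 and 100 (-1.56 ± 0.38). These are 4 to 11 counts in pMXs and 21 to 29 in Untreated MEFs, and Heyl passed the filter only through Untreated. Mural-cell markers fell in 7 of 8 cases and rose in 0, where 35.0% of all genes tested were called in each direction. Their summed level was 869 to 962 CPM in pMXs and 3637 to 4522 CPM in Untreated MEFs, most of it Acta2. Whether they have a part in the lower Notch3 and Heyl was not tested.

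In the edgeR fit of the whole table, 35.0% of all genes tested were called higher in pMXs and 35.0% lower, and 4 members lay on the higher and 3 on the lower side of that threshold. For the members this is a description and no test, since the comparison is the one behind the choice, and Dll1 and Heyl passed the filter only through the groups where they were high. The median log2 fold change was 0.30 over the 10 members and -0.0013 over the 14607 genes tested. Without pMXs replicate 100 the number of members on the lower side was 1 in place of 3.

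Among the 14606 other genes tested, those nearest to Nrarp over the 13 libraries were found by the root mean square difference between log2 CPM profiles, each centred on its own mean. The nearest was Ccdc88c, a gene for a Dishevelled-binding protein, at 0.092, with means of 95.8 CPM with Tet2-WT, 86.6 with Tet2-E, 95.6 with pMXs and 2.08 in Untreated. Gna14, a G protein subunit gene, followed at 0.20, Prr18 at 0.21, Adap1 at 0.22 and Upp1, the uridine phosphorylase gene, at 0.23. Of the members, Jag2 ranked 21 with 0.34 and Dll1 ranked 74 with 0.54, while Jag1 (2.14), Hey1 (2.13), Hes1 (2.19) and the receptors (2.29 to 2.57) were far off and Heyl (3.27) farther still. The likeness mostly measures the step between Untreated and day 5, which many genes share.

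**Figure D2:**
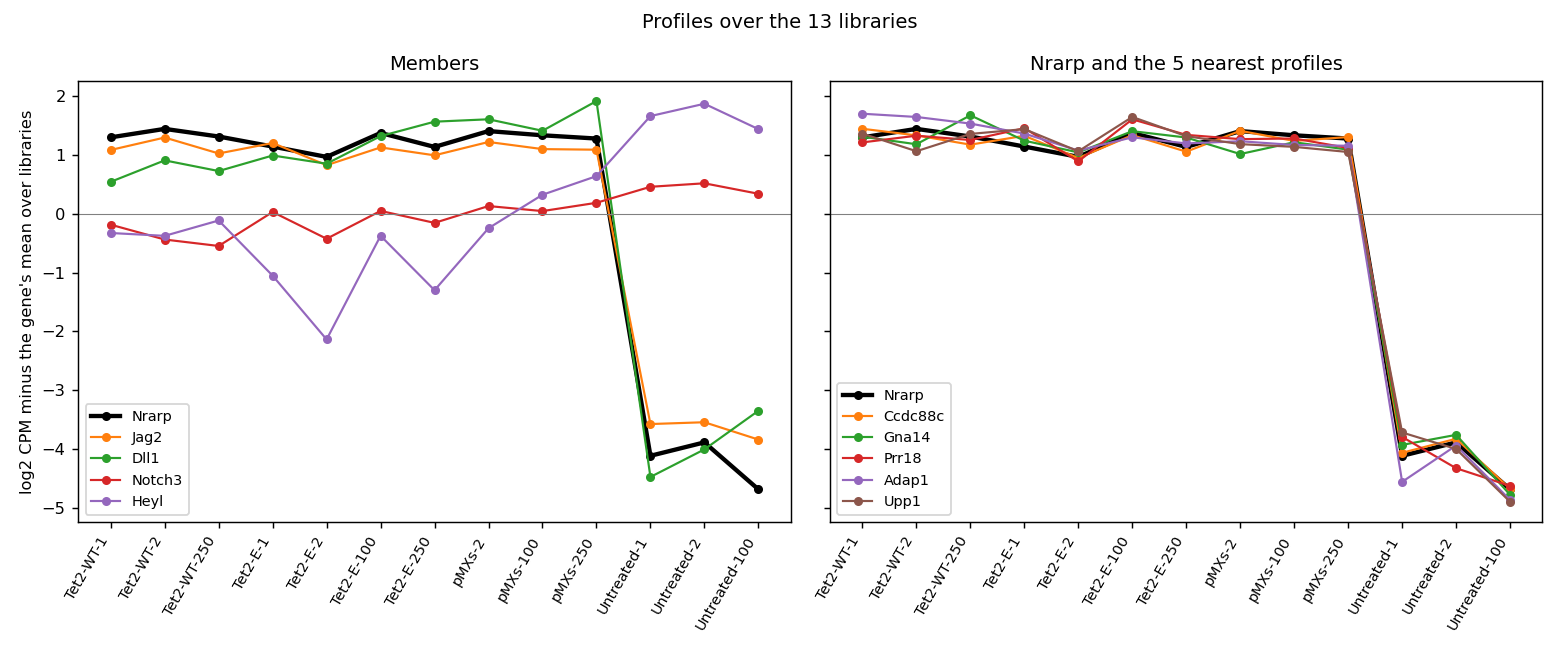
Centred log2 CPM (vertical axis) in each of the 13 libraries (horizontal axis) for 5 members (left) and for Nrarp with its 5 nearest genes (right); lines only join points of a gene. Nrarp and Jag2 share the step between Untreated and day 5, Dll1 has it too but sits lower with Tet2-WT than with pMXs, and Heyl runs the opposite way.

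With wild-type Tet2, Dll1 and Notch3 fell and no member rose. Dll1 was 5.63, 7.27 and 6.40 CPM in Tet2-WT replicates 1, 2 and 250, against 11.9, 10.3 and 14.7 CPM in pMXs replicates 2, 100 and 250. Every Tet2-WT library was below every pMXs library, with a log2 fold change of -0.92 ± 0.19 (edgeR adjusted p = 0.00515). Within replicate numbers 1 and 2, where pMXs had only replicate 2, the value was -0.87. Within 100 and 250, where Tet2-WT had only replicate 250, it was -0.94. Notch3 was 111, 93.4 and 86.6 CPM in Tet2-WT, against 139, 131 and 144 CPM in pMXs, also without overlap (-0.50 ± 0.12, edgeR adjusted p = 0.00896). The Notch3 value was -0.44 within replicate numbers 1 and 2 and -0.66 within 100 and 250, with the same single libraries. Both falls passed in each of the 13 fits that left out 1 library, with edgeR adjusted p of 0.00303 to 0.0358 for Dll1 and 0.00237 to 0.0460 for Notch3. The pMXs libraries also belong to the comparison taken to have chosen the set, so tests against pMXs are not independent of that choice. For a gene chosen as high in pMXs, such as Dll1, the choice alone would favour a fall.

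Dll1 thus stood at 6.43 ± 0.822 CPM with Tet2-WT, 12.3 ± 2.22 CPM with pMXs and 0.175 ± 0.106 CPM in Untreated, so its level with Tet2-WT was still well above that of MEFs. Notch3 with Tet2-WT, at 97.1 ± 12.7 CPM, was farther from its Untreated level of 172 ± 10.7 CPM than pMXs was. Fibroblast and mural markers moved with these genes: with Tet2-WT 6 of 13 fibroblast markers fell and 1 rose, and 2 of 8 mural markers fell and 0 rose. Over all genes tested 6.52% were called lower and 6.01% higher. The mural sum was 724 to 820 CPM with Tet2-WT and 869 to 962 CPM with pMXs, most of it Acta2. Of 8 epithelial markers 2 rose and 0 fell, although their sum was 221 to 334 CPM with Tet2-WT and 314 to 397 CPM with pMXs. Most of that sum was Cdh1, with means of 234 CPM with Tet2-WT and 305 CPM with pMXs. The mean of Cldn7 was also lower with Tet2-WT, and those of Epcam, Krt8, Krt18, Cldn4, Esrp1 and Ocln were higher. Of the 5 endothelial markers tested 2 fell (sum 78.4 to 88.2 CPM with Tet2-WT and 76.6 to 89.6 CPM with pMXs, most of it Tek). Of 8 neural markers 1 rose and 2 fell (sum 704 to 1038 CPM with Tet2-WT and 544 to 651 CPM with pMXs, most of it Nes). The part of all these markers in the result was not tested.

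The other 7 members with a test did not pass for Tet2-WT against pMXs. Jag2 was 65.6 ± 6.62 CPM with Tet2-WT and 65.5 ± 3.37 CPM with pMXs (log2 fold change 0.00 ± 0.10, edgeR adjusted p = 0.988), and Jag1 252 ± 16.3 against 239 ± 16.5 CPM (0.08 ± 0.08, adjusted p = 0.617). Notch1 (-0.18 ± 0.10) and Notch2 (-0.19 ± 0.12) had lower means. Hes1 was 163, 153 and 173 CPM in Tet2-WT, which lies inside the range of the pMXs libraries (0.21 ± 0.21, edgeR adjusted p = 0.602). Hey1, at 9.61, 10.3 and 9.36 CPM, lay just above the pMXs libraries at 8.81, 9.11 and 8.28 CPM but did not pass (0.16 ± 0.15, edgeR adjusted p = 0.573). Heyl had 5 to 6 counts per library with Tet2-WT and 4 to 11 with pMXs (-0.71 ± 0.48, edgeR adjusted p = 0.401). Nrarp, described only, differed by 0.01 ± 0.11. In all, 0 of the 9 members with a test were called higher, where 6.01% of all genes tested were, and 2 lower, where 6.52% were. DESeq2 also called 0 higher and 2 lower, and 0 members were higher at an unadjusted p under 0.05.

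With the stalling mutant no member passed. edgeR called 0 of the 9 members with a test higher and 0 lower against pMXs, where 0.0205% and 0.0274% of all genes tested were called, and DESeq2 called 0 and 0. At an unadjusted p under 0.05, 1 member was higher and 4 were lower. The share of all genes at that unadjusted level is not given, so these counts are not read as a result about the members. Dll1 was 7.70, 6.99, 9.70 and 11.5 CPM in Tet2-E replicates 1, 2, 100 and 250, overlapping the pMXs libraries (-0.43 ± 0.18, edgeR adjusted p = 0.456). Notch3 was 129, 94.3, 131 and 114 CPM in these libraries (-0.23 ± 0.11, edgeR adjusted p = 0.527). Hey1 was 15.4, 11.9, 9.93 and 10.1 CPM, above all 3 pMXs libraries (0.43 ± 0.14, edgeR adjusted p = 0.307), and Tet2-E replicate 1 gave the highest value. Heyl had 0 to 6 counts per Tet2-E library (-1.79 ± 0.52, edgeR adjusted p = 0.237), and a fitted fold at such counts depends on the small count added to avoid 0. With a block for the replicate number, 93 genes in place of 7 were called over the whole table, and still 0 members. Nrarp differed by -0.18 ± 0.10, and without Tet2-E replicate 100 the members called were still 0.

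Set directly against each other, wild-type and mutant Tet2 did not differ in any member past the threshold. edgeR called 0 of the 9 members with a test higher with Tet2-WT than with Tet2-E and 0 lower, against 2.43% and 2.19% of all genes tested. DESeq2 called 0 and 0. At an unadjusted p under 0.05 there were 0 higher and 2 lower, Notch3 and Dll1, again without a share of all genes beside them. Dll1 averaged 6.43 ± 0.822 CPM with Tet2-WT and 8.98 ± 2.05 CPM with Tet2-E (-0.49 ± 0.18, edgeR adjusted p = 0.169). Notch3 averaged 97.1 ± 12.7 CPM with Tet2-WT and 117 ± 17.0 CPM with Tet2-E (-0.27 ± 0.11, edgeR adjusted p = 0.214), and passed without Tet2-E replicate 2 (-0.36, edgeR adjusted p = 0.0407). Both genes therefore fell against pMXs with Tet2-WT without a difference from Tet2-E being shown. Nrarp differed by 0.19 ± 0.10 between Tet2-WT and Tet2-E, with overlap. The comparisons of Tet2-WT and Tet2-E with pMXs share the same 3 pMXs libraries.

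**Figure D3:**
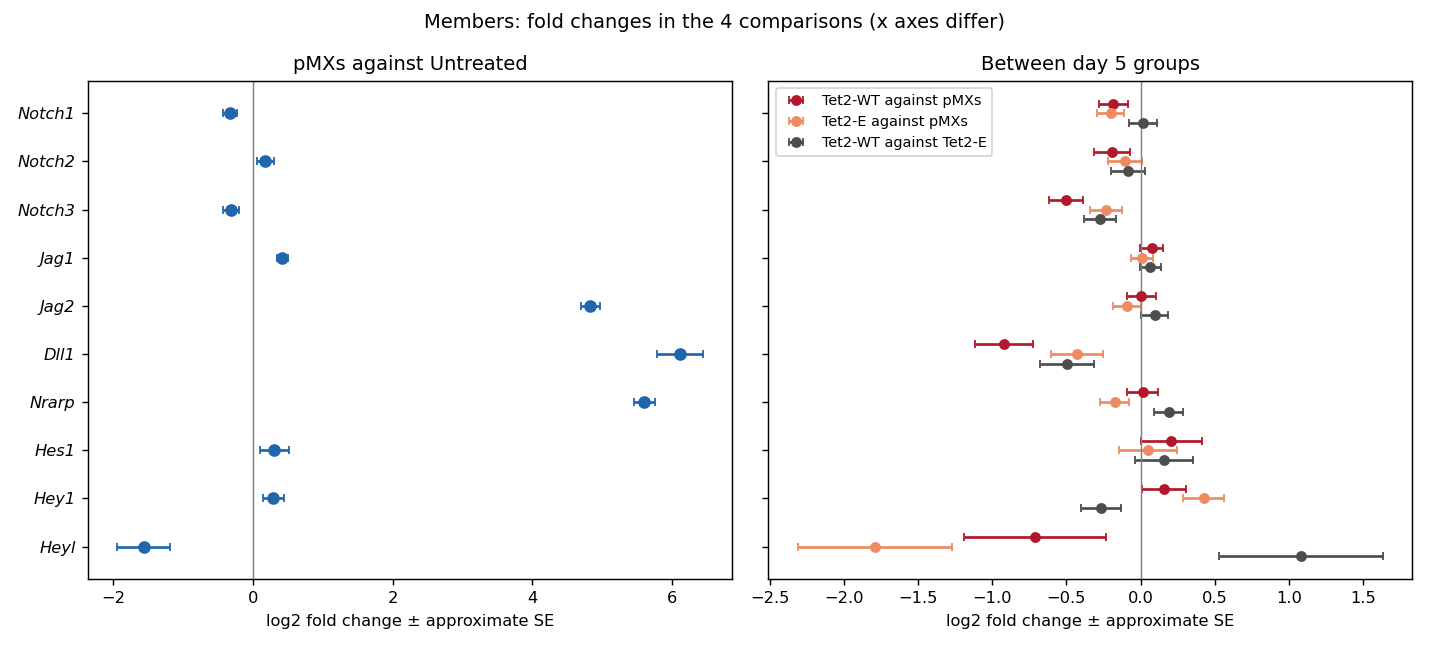
Log2 fold change (horizontal axis, bars are approximate SEs) of each member for pMXs against Untreated (left) and between the day 5 groups (right; the axes differ). Jag2, Dll1 and Nrarp lie between 4.83 and 6.11 on the left, and on the right Dll1 at -0.92 and Notch3 at -0.50 are the 2 that passed for Tet2-WT against pMXs.

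The rest of the pathway was read from 60 further genes, of which 58 were tested. Between pMXs and Untreated 22 rose, 20 fell and 16 did not pass, near the 35.0% called in each direction over all genes, and their median log2 fold change was -0.08. The lists were drawn up with earlier results of these data known, and genes are named by size of change. Their p-values in this comparison are therefore descriptive. The counts also include genes that passed the filter only through the side where they were high. Among the receptors and ligands outside the members, Notch4 rose to 4.25, 2.76 and 3.76 CPM in pMXs, against 0.749, 1.21 and 0.730 CPM in Untreated (1.99 ± 0.30, edgeR adjusted p = 2.34e-05). Dll3 also rose, on 5 to 10 counts per library in pMXs and 2 to 3 in Untreated, and passed the filter only through day 5 libraries. Of 8 endothelial markers 5 were tested, of which 2 rose and 2 fell. Their sum was 76.6 to 89.6 CPM in pMXs, most of it Tek, and 24.8 to 29.7 CPM in Untreated, most of it Flt1. Mean Tek was 73.9 CPM in pMXs and 3.33 CPM in Untreated, and mean Flt1 4.50 and 17.3 CPM. The Kdr mean was also higher in pMXs, and those of Pecam1, Cdh5, Tie1, Esam and Emcn were lower. The part of these markers in the rise of Notch4 was not tested. Dll4, the ligand of sprouting vessels, had 0 to 8 counts per library and was not tested. Of the 5 atypical ligands, which lack parts of the classical ligand structure, 1 rose and 4 fell. Dlk1 fell to 3.33 ± 0.823 CPM in pMXs, against 540 ± 75.4 CPM in Untreated (-7.38 ± 0.15), and Dner fell to 2.29 against 28.7 CPM (-3.64 ± 0.22), while Dlk2 rose to 8.97 against 2.04 CPM (2.12 ± 0.23).

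The Hes, Hey and Deltex genes grouped as other targets were mixed, with 3 that rose and 1 that fell of 4 tested. Beside these and the 2 lists that follow, 35.0% of all genes tested were called in each direction. The grouping does not show that Notch drives each of these genes, Hes6 included. Hes6, a Hes relative that opposes Hes1 in neural progenitors, rose to 61.5 ± 3.14 CPM in pMXs, against 19.3 ± 2.08 CPM in Untreated (1.67 ± 0.10, edgeR adjusted p = 1.46e-09). Hey2 rose by 0.89 ± 0.15, and Dtx1, a Deltex ubiquitin ligase gene, fell to 0.339 against 2.30 CPM (-2.70 ± 0.37). Dtx1 had 4 to 11 counts per library in pMXs and 37 to 73 in Untreated, and passed the filter only through Untreated. Hes5 also rose, on 6 to 12 counts per library in pMXs and 1 to 4 in Untreated, and passed the filter only through day 5 libraries. In the nuclear complex 4 of 8 rose and 1 fell. The 1 was Rbpj itself, the DNA-binding partner of cleaved Notch, at 99.5, 108 and 111 CPM in pMXs, against 219, 225 and 208 CPM in Untreated (-1.03 ± 0.07, edgeR adjusted p = 3.05e-09). The coactivator gene Maml3 rose by 1.76 ± 0.14 and the acetyltransferase gene Kat2a by 0.63 ± 0.10. Of 12 corepressor genes 5 rose and 3 fell: Tle4 (1.62 ± 0.09) and Spen (0.95 ± 0.12) rose, and Tle2 (-2.98 ± 0.21) and Tle1 (-0.85 ± 0.07) fell.

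Of the 10 genes for the furin, ADAM and gamma-secretase steps of receptor cleavage 0 rose and 4 fell. Over all genes tested 35.0% were called in each direction, which is the share beside each list in this paragraph. Among the 4 were Adam10 (212 ± 5.71 CPM in pMXs and 288 ± 38.7 CPM in Untreated, -0.45 ± 0.10) and the gamma-secretase gene Ncstn (-0.33 ± 0.06). Of the 5 genes that put sugars on Notch 3 rose and 1 fell, with the Fringe gene Rfng at 0.67 ± 0.12 and the fucosyltransferase gene Pofut1 at -0.71 ± 0.07. Mfng, also among those that rose, had 0 counts in every Untreated library and passed the filter only through day 5 libraries. Of 4 genes for ligand endocytosis 1 rose, Mib1 (0.54 ± 0.16), and 2 fell, Neurl1a (-0.76 ± 0.14) and Mib2 (-0.55 ± 0.11). Of 8 receptor turnover genes 3 rose and 4 fell, with Fbxw7, which marks the Notch intracellular domain for degradation, at 1.01 ± 0.08, Dtx3l at 0.48 ± 0.12, Numbl at -0.94 ± 0.12 and Dtx2 at -0.52 ± 0.11.

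**Figure D4:**
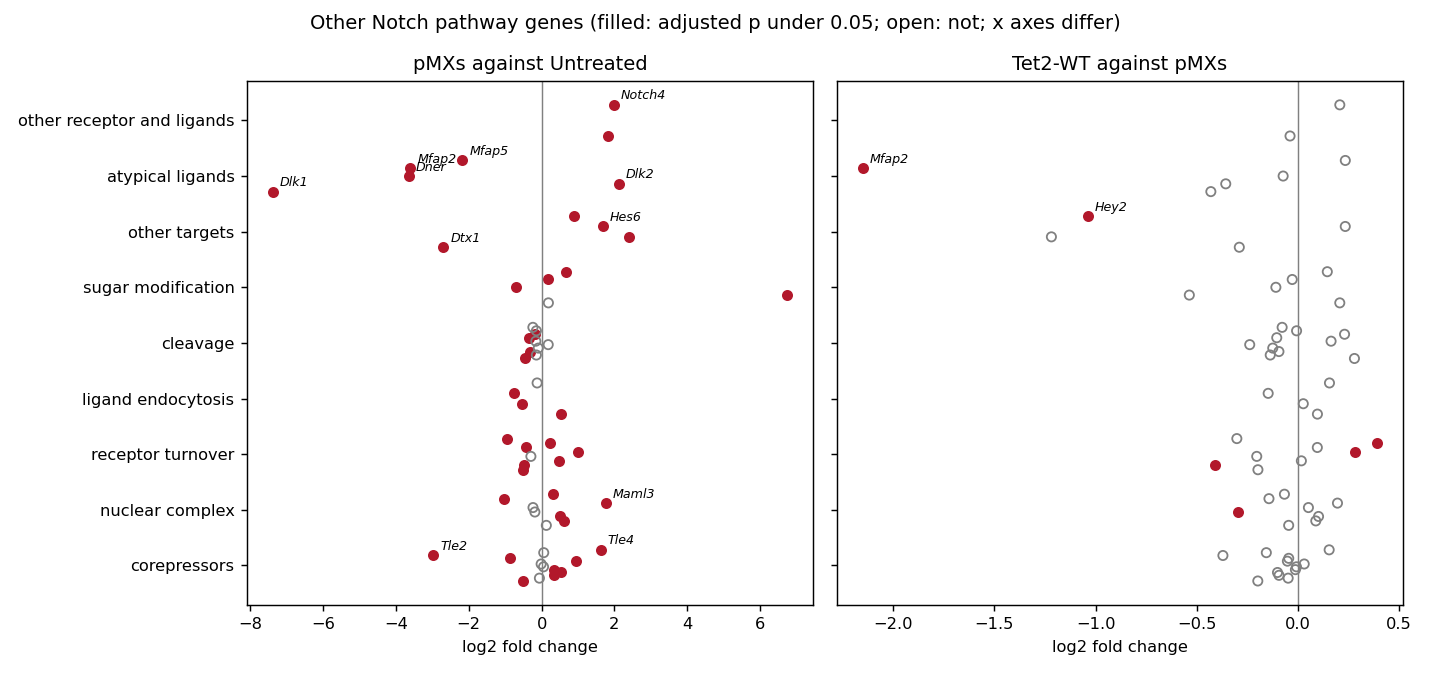
Log2 fold change (horizontal axis; the axes differ) of 58 other Notch pathway genes by role, for pMXs against Untreated (left) and Tet2-WT against pMXs (right); filled points passed an edgeR adjusted p under 0.05. The unlabelled point near 7 on the left is Mfng, which had 0 counts in every Untreated library, so its position depends on the small count added by the fit.

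Between Tet2-WT and pMXs 6 of the 58 passed, 2 higher and 4 lower, near or below the 6.01% called higher and 6.52% called lower over all genes, with a median log2 fold change over the 58 of -0.05 and over all genes tested of -0.0037. Hey2, the Hey gene of heart and vessel development, fell to 5.72, 5.41 and 6.64 CPM in Tet2-WT replicates 1, 2 and 250, against 10.6, 13.3 and 12.4 CPM in pMXs replicates 2, 100 and 250 (-1.04 ± 0.15, edgeR adjusted p = 0.00031). In Untreated MEFs it was 7.12, 7.40 and 5.11 CPM. Hey2 also fell against Tet2-E, whose libraries had 9.49, 10.6, 12.1 and 10.3 CPM (-0.85 ± 0.14, edgeR adjusted p = 0.00227), with no overlap. For Tet2-E against pMXs Hey2 did not pass (-0.19 ± 0.13, edgeR adjusted p = 0.718). The Hey1 mean, by comparison, was higher with Tet2-WT than with pMXs, without passing.

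Mfap2, a microfibril gene whose protein can bind Jagged ligands, fell to 1.62 ± 0.291 CPM with Tet2-WT, against 7.22 ± 1.79 CPM with pMXs (-2.15 ± 0.22, edgeR adjusted p = 2.2e-05) and 3.82 ± 0.902 CPM with Tet2-E (-1.28 ± 0.22, edgeR adjusted p = 0.00323). With Tet2-E against pMXs it did not pass (-0.87 ± 0.18, edgeR adjusted p = 0.11), but it did with the replicate block (-0.89, edgeR adjusted p = 0.0101). Hey2 and Mfap2 were the 2 of the 58 genes called against Tet2-E, both lower, where 2.19% of all genes tested were called lower. Both were called in each of the 13 fits that left out 1 library, for both comparisons of Tet2-WT. These fits share most of their libraries, and the lists were drawn up with earlier results known, so they are not independent support. The smaller calls against pMXs were Numb (0.39 ± 0.10, edgeR adjusted p = 0.0128), an endocytic inhibitor of Notch, and Fbxw7 (0.28 ± 0.08, edgeR adjusted p = 0.027), which rose, and Dtx3 (-0.41 ± 0.13, edgeR adjusted p = 0.0482) and Maml1 (-0.29 ± 0.08, edgeR adjusted p = 0.0278), which fell. The count of 6 was 2 without Tet2-WT replicate 1, without Tet2-WT replicate 2, without pMXs replicate 100 or without pMXs replicate 250. With the replicate block Maml1 did not pass (edgeR adjusted p = 0.058) and Numbl did (-0.39, edgeR adjusted p = 0.0479). Of the 58 genes edgeR called 0 for Tet2-E against pMXs, and DESeq2 called 0 higher and 1 lower, Mfap2. At an unadjusted p under 0.05 edgeR had 3 higher and 2 lower, with no share of all genes at that level to set beside them.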

How the data were processed

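The deposited table holds raw read counts per gene, for which the submitters' processing notes name STAR 2.6.1a, mm9 and featureCounts 1.6.2 as the authors' tools and build. The kit was stranded, per the labels' protocols, but whether counting used strand is not given in the sources used here. Overlapping exons were read from GENCODE M21 (GRCm38).

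The quasi-likelihood test of edgeR 4.0.16 (robust, TMM scaling) was run in R 4.3.3 as one fit of all 13 libraries with a mean per group. The filterByExpr rule (count minimum 10, total minimum 15) left 14607 of 24495 genes, all 10 members among them. P-values were adjusted by Benjamini-Hochberg over these genes, with a threshold of 0.05. SEs were derived from the fold change and its F value. The biological coefficient of variation was 0.102. Replicates differed by more than counting error (chi-square over its degrees of freedom, 6.63 to 42.9), so none was counted as a copy. The fit was checked on simulated data with the same dispersion in every gene and no difference between sets of replicates. That check does not cover the correlations between libraries given below.

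Members and gene lists were chosen with earlier results of these data known. Besides members, the text names up to 2 genes per list and direction by size of change, with a floor of 1 CPM in 1 group, and the 5 genes nearest to Nrarp (log2 CPM, prior count 2). Alternatives were RLE scaling, DESeq2 1.42.0, other filters on low counts, a replicate block, a term for the set of numbers (1 and 2, or 100 and 250), fitting only the compared groups, and leaving out each library. Fits inside each set were chosen after seeing the data. Where such a fit leaves 1 library in a group, only the fold change is given. Tet2-WT had replicates 1, 2 and 250 and pMXs had 2, 100 and 250, so their comparison is partly tied to the set. The labels mention 2 preparation sets and do not say which library was in which. Across genes, residuals of same-numbered day 5 libraries had correlations of 0.12 to 0.34 (8 pairs). Day 5 libraries of the same set with another number correlated as highly (0.08 to 0.36, 8 pairs) and those of opposite sets did not (-0.42 to -0.05, 17 pairs). The correlations thus followed the set, and pairing by number was not shown. The main p-values come from the fit without a block or set term. Same-numbered pairs with an Untreated library had -0.04 to 0.17 (7 pairs), which was not taken as pairing.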

Additional observations from a re-analysis of the deposited data

Results flagged for a closer look

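Tet2 in Tet2-E replicate 100, at 580 CPM, lay far below the other 3 Tet2-E libraries relative to their spread. By chance about 1 in 20 groups would stand out so, and 11 were looked at, Tet2 and the 10 members in Tet2-E. None of the members stood out. In that library Nrarp was 80.5 CPM, the highest of the Tet2-E libraries, and Hes1 was 101 CPM, the lowest. Leaving it out left 0 members called for Tet2-E against pMXs.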

How the results depend on the processing

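The counts of members called stayed within 1.5 times under other scalings, filters, terms and tools. With 1 library left out, pMXs against Untreated gave 4 to 5 higher and 1 to 3 lower, and Tet2-WT against Tet2-E 0 to 1 lower. Within replicate numbers 1 and 2, 1 member was lower for Tet2-WT against Tet2-E (Hey1, -0.46, edgeR adjusted p = 0.0459). Other Notch genes called for Tet2-WT against pMXs were 6, and 2 to 6 with 1 library left out. For Tet2-WT against Tet2-E they were 2, and 2 to 3 with 1 library left out and 6 within replicate numbers 1 and 2. For Tet2-E against pMXs they were 0, and 1 with DESeq2, with the replicate block, with the set term and within either set.

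Over all genes, Tet2-E against pMXs gave 7 calls, and 141 with DESeq2, 17 with no filter, 93 with the replicate block, 152 with the set term, 0 in a fit of only the groups compared, 103 within numbers 1 and 2, 83 within 100 and 250, and 1 to 50 with 1 library left out; the cause was not tested. Tet2-WT against Tet2-E gave 675, and 1052 with the set term, 1015 within numbers 1 and 2, and 335 to 893 with 1 library left out. Tet2-WT against pMXs gave 1830, and 1097 to 2177 with 1 library left out. The replicate block changed no member's call in the day 5 comparisons. Depth limits Heyl and the Untreated values of Dll1, which rest on 0 to 29 and 2 to 6 counts per library.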
